A study of Mus musculus with 186 samples.

Results

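Wild-type prefrontal cortex was compared with wild-type somatosensory cortex in 12-week-old mice, using 5 libraries of each area, 10 of the 186 libraries of the series. The libraries were chosen by their labels alone: area, genotype and age. The series profiled dissected brain regions of an Akap11 mutant mouse line by bulk RNA-seq, and the wild-type (WT) mice carry no Akap11 mutation. The same pair of areas was sequenced in WT mice of 4 weeks, and at 12 weeks in mice heterozygous (Akap11 +/-, HET) and homozygous (Akap11 -/-, KO) for the mutation, with 5 libraries for each area and group. Regions were cut from frozen brain in a cryostat. The labels do not give the sex of the mice. They do not say whether the libraries of a group are separate animals, or whether libraries of the 2 areas that share a sample number came from 1 animal, so p-values measure only the spread between these libraries, which may be technical.

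The neocortex is built of layers of excitatory neurons, with inhibitory interneurons throughout. Primary somatosensory cortex is a granular area: it has a prominent layer 4, which receives touch input from the thalamus, and many fast-spiking interneurons that contain parvalbumin. Mouse prefrontal cortex is largely agranular, is strongly connected with limbic structures, and receives dense monoamine input.

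Summed counts were 40.04 M to 69.8 M in the prefrontal libraries and 41.1 M to 51.9 M in the somatosensory libraries, and the 10 most abundant genes took 3.68% to 5.03% of each. A list of excitatory neuron markers gave a list level (the mean over its genes of log2(CPM + 1), where CPM is a count scaled to library size) of 7.65 to 7.77 in the prefrontal and 7.45 to 7.702 in the somatosensory libraries. Markers of striatal projection neurons gave 2.86 to 2.92 and 2.903 to 3.02, and those of thalamic neurons 2.52 to 2.73 and 2.81 to 3.19. Those of hippocampal neurons gave 1.89 to 2.05 and 2.05 to 2.21. Markers of olfactory bulb neurons and migrating neuroblasts gave 2.04 to 2.40 and 1.83 to 1.99, without overlap, and no library of the series is of olfactory bulb. On a scale set over all 6 WT regions, the striatal list reached at least 7.97 in every striatal library, the thalamic list at least 8.13 in every thalamic library and the hippocampal list at least 5.85 in every hippocampal library, while in the cortical libraries none of these lists exceeded 2.82. Akap11 had a median of 253 and 229 CPM in the 4-week WT areas, 139 and 120 in the HET areas and 16.8 and 15.1 in the KO areas, prefrontal first.

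The prefrontal and somatosensory areas differed in a large part of the genes measured. At an adjusted p below 0.05 (edgeR quasi-likelihood test, Benjamini-Hochberg adjustment over all genes), 6919 of 15946 genes differed, which is 43.4%. Of these, 3447 were higher (21.6%) and 3472 lower (21.8%) in prefrontal cortex. Most of the differences were small, with a median absolute log2 fold change of 0.49 among the genes called. A difference of at least 2-fold was called for 1435 genes (9%), of which 821 were higher (5.15%) and 614 lower (3.85%) in prefrontal cortex. In 4994 genes (31.3%) the 5 libraries of one area did not overlap the 5 of the other, with all prefrontal libraries above in 14.9% of genes and below in 16.4%. All log2 fold changes below are of prefrontal against somatosensory cortex, each with its standard error (SE). A positive value means higher in prefrontal cortex. Counts of called list members below stand beside the 21.6% of all genes called higher and the 21.8% called lower.

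Grp, which encodes the neuropeptide gastrin-releasing peptide, had the largest difference among the genes higher in prefrontal cortex with an average log2 CPM of at least 1. Its level was 21.3, 18.8, 17.9, 14.6 and 18.4 CPM in the prefrontal libraries and 0.747, 0.633, 0.871, 0.585 and 0.492 CPM in the somatosensory libraries. Every prefrontal library lay above every somatosensory one, and the log2 fold change was 4.77 (SE 0.15, adjusted p = 2.56e-11), or 27.3-fold. Crym (chr7:120186380-120202111, minus strand, mm10) encodes mu-crystallin, a thyroid hormone-binding protein. Crym stood at 131, 128, 109.7, 137 and 125 CPM in prefrontal and 5.505, 6.19, 5.09, 7.29 and 5.33 CPM in somatosensory cortex, with no overlap, for a log2 fold change of 4.42 (SE 0.1, adjusted p = 4.02e-12). Dio3 encodes the deiodinase that inactivates thyroid hormone. Its prefrontal libraries spread more widely, with 6.08, 5.66, 3.74, 2.66 and 2.47 CPM against 0.171, 0.178, 0.252, 0.317 and 0.246 CPM, and its log2 fold change was 4.15 (SE 0.32). Rxrg, a retinoid X receptor, was at 12.2 ± 2.01 CPM (SD, n = 5) in prefrontal and 0.826 ± 0.224 CPM (SD, n = 5) in somatosensory cortex.

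Secreted proteins were among the other 8 genes of this group of 12. Cbln1, a synapse organiser of the cerebellin family, was 14.1-fold higher in prefrontal cortex, Figf (now Vegfd), a vascular growth factor, 13.4-fold and Rspo2, an R-spondin that potentiates Wnt signalling, 11.1-fold. Rspo2 was at 47.98, 38.4, 41.05, 39.05 and 38.7 CPM in the prefrontal and 4.31, 3.48, 3.83, 3.05 and 3.75 CPM in the somatosensory libraries. The others were Slc26a4, an anion exchanger (11.8-fold), Rsph4a, a radial spoke protein of motile cilia (10.1-fold), Aldh3b2, an aldehyde dehydrogenase (9.602-fold), Neb, a thin filament protein known from muscle (9.48-fold), and Baiap3, a protein of vesicle release (9.47-fold). The 12 genes were chosen to have no overlap between areas, so in each the 5 prefrontal libraries lay above the 5 somatosensory ones.

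**Figure D1:**
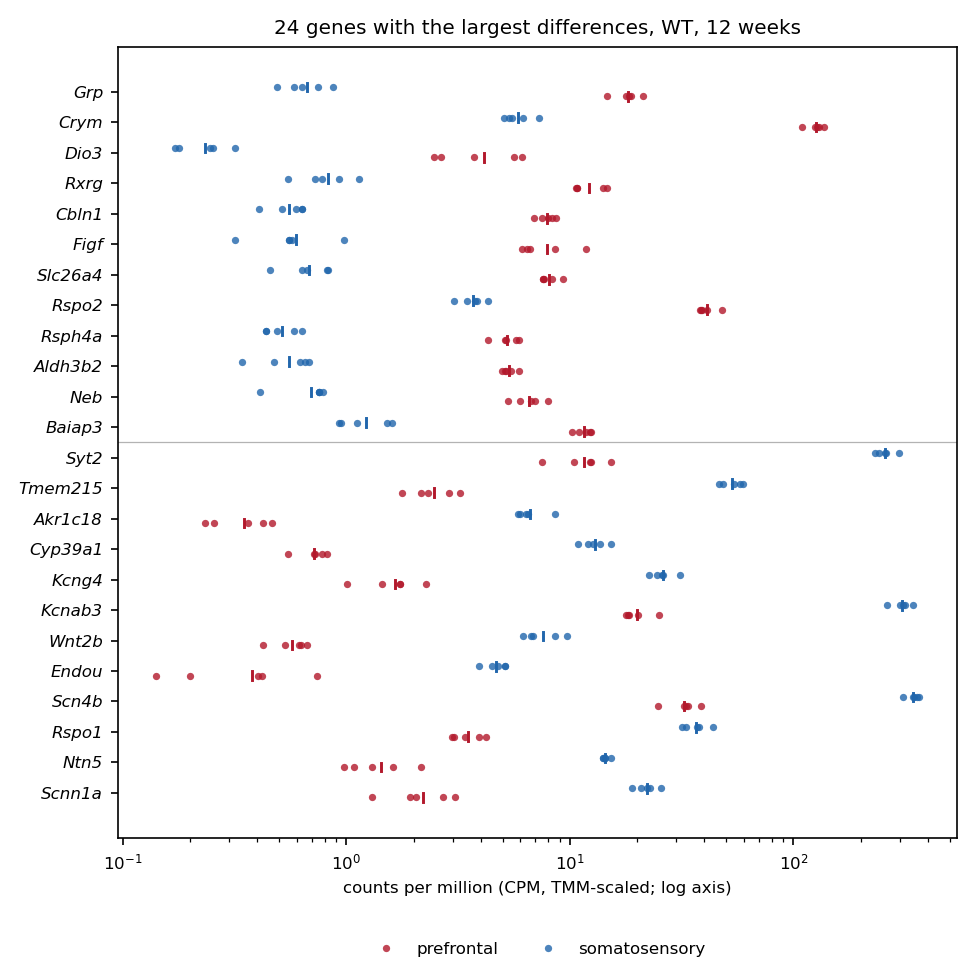
Level of the 12 genes with the largest called difference in each direction (log axis, TMM-scaled CPM) in each of the 5 prefrontal and 5 somatosensory WT libraries at 12 weeks; points are libraries and ticks are means. The 24 genes were chosen with an average log2 CPM of at least 1, no overlap between areas and no predicted gene models. Grp, for example, was at 14.6 to 21.3 CPM against 0.492 to 0.871 CPM.

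The genes lowest in prefrontal relative to somatosensory cortex were led, under the same conditions of choice, by Syt2 (chr1:134646677-134762593, plus strand). It encodes the fast calcium sensor of transmitter release found in terminals of parvalbumin interneurons. Syt2 was at 12.5, 10.4, 7.54, 15.3 and 12.3 CPM in the prefrontal libraries and at 233, 298, 242, 257 and 259.8 CPM in the somatosensory libraries. The areas did not overlap and the log2 fold change was -4.48 (SE 0.15, adjusted p = 5.07e-11), or 22.3-fold lower. Tmem215, which encodes a membrane protein, was at 2.33, 3.24, 2.88, 1.78 and 2.16 CPM against 46.5, 57.9, 54.01, 59.7 and 48.6 CPM. Its log2 fold change was -4.41 (SE 0.14). Channel subunits followed. Kcnab3 (chr11:69326258-69333042, plus strand), a potassium channel beta subunit, was at 17.8, 18.1, 18.3, 25.1 and 20.2 CPM in prefrontal and 262, 315, 301, 342 and 310.1 CPM in somatosensory cortex, a log2 fold change of -3.94 (SE 0.1). Scn4b, a sodium channel beta subunit that supports resurgent current, was at 33.8, 32.3, 24.7, 38.6 and 33.2 CPM against 308, 364, 348, 343 and 356 CPM, a log2 fold change of -3.4 (SE 0.1). Kcng4, a modifier potassium channel subunit, was 16-fold lower and Scnn1a, an epithelial sodium channel subunit used as a layer 4 marker, 9.93-fold lower.

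Steroid and sterol enzymes and secreted factors made up most of the remainder. Akr1c18, a progesterone-metabolising enzyme, was 18.9-fold lower in prefrontal cortex and Cyp39a1, an oxysterol hydroxylase, 18.04-fold lower. Wnt2b, a Wnt ligand, was 13.4-fold lower, Ntn5, a netrin, 10.1-fold, and Endou, an endoribonuclease, 12.2-fold. Rspo1, an R-spondin like Rspo2, differed in the opposite direction to it, with 3.03, 4.22, 2.96, 3.41 and 3.94 CPM in prefrontal and 37.2, 43.6, 33.02, 31.8 and 37.9 CPM in somatosensory cortex, or 10.4-fold lower. In 8 of the 24 genes the annotation has a gene on the opposite strand of the same locus, among them Grp, Cbln1, Syt2 and Kcnab3, and the labels name no strand setting for the counting. Akr1c18 and Aldh3b2 belong to families of similar sequence, between which reads can be shared.

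Among the excitatory neuron lists, layer 4 markers were lower in prefrontal cortex and near-projecting deep-layer markers higher. Of 7 layer 4 markers, 6 were lower and 1 higher, with a median log2 fold change of -1.97, beside -0.57 for layer 2/3 and 0.01 over all genes tested. In bulk tissue fewer cells of a type and less RNA per cell cannot be told apart. Rorb, the transcription factor of layer 4, was at 23.6, 30.9, 26.6, 25.03 and 31.1 CPM in prefrontal and 88.7, 135, 108, 119 and 99.7 CPM in somatosensory cortex, for a log2 fold change of -2.0 (SE 0.11, adjusted p = 6.03e-09). Rspo1 (-3.38) and Scnn1a (-3.31) had the largest differences of the list. The member that was higher was Ctxn3, with a log2 fold change of 0.89; it was named after its value was seen, and it did not pass when all 6 WT regions were fitted together.

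Layer 2/3 markers split, with 3 higher and 7 lower of 10. Cux1, a homeobox factor of the upper layers, was at 52.98, 48.9, 55.6, 54.5 and 54.9 CPM in prefrontal and 163, 171, 191, 188 and 175 CPM in somatosensory cortex, a log2 fold change of -1.73 (SE 0.06). Lamp5, a membrane protein of upper-layer neurons and some interneurons, differed by -1.67 (SE 0.1). Otof, a calcium sensor of the ferlin family, went the other way, at 43.01 to 75.3 CPM in prefrontal against 9.93 to 20.1 CPM in somatosensory cortex.

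In layer 5, markers of neurons that project out of the telencephalon were higher in 6 and lower in 2 of 9 cases. Fezf2, the transcription factor that specifies these neurons, was at 53.4, 66.5, 58.4, 68.9 and 58.4 CPM in prefrontal and 18.8, 25.9, 18.5, 20.3 and 22.7 CPM in somatosensory cortex, a log2 fold change of 1.52 (SE 0.1, adjusted p = 2.44e-08). Chrna6, a nicotinic receptor subunit, differed in the other direction, with rounded counts of 1, 2, 0, 0 and 2 in the prefrontal and 23, 33, 22, 23 and 23 in the somatosensory libraries. The other member that was lower was Bcl6, a transcriptional repressor, at -0.32; the count of lower members was 1 in 6 of the 10 fits that left out a library (prefrontal 1, 3 or 5, or somatosensory 2, 3 or 4) and with all 6 WT regions or all 3 genotypes in the fit. Markers of intratelencephalic layer 5 neurons had no common direction, with 2 higher and 2 lower of 6; Hsd11b1, which regenerates active glucocorticoid, was 2.69-fold lower in prefrontal cortex.

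Near-projecting neuron markers were higher in 4 of 5 cases, with a median log2 fold change of 1.34. Lypd1 (chr1:125867622-125913101, minus strand), a modulator of nicotinic receptors, was at 164, 114, 123, 133 and 116 CPM in prefrontal and 14.1, 13, 13.7, 15.7 and 13.6 CPM in somatosensory cortex, a log2 fold change of 3.21 (SE 0.1, adjusted p = 2.62e-11). Trhr, the receptor of thyrotropin-releasing hormone, was at 5.04, 3.405, 4.45, 5.87 and 5.12 CPM against 0.405, 0.673, 0.642, 0.463 and 0.574 CPM. Neither gene overlapped between areas. In layer 6, Ntsr1, a neurotensin receptor that marks corticothalamic neurons, was 3.14-fold higher in prefrontal cortex, while its list held 3 higher, 1 lower and 3 uncalled members. Synpr, a synaptic vesicle protein, and Gnb4, a G protein subunit, from the list of Car3, claustrum and endopiriform neurons, were 2.699-fold and 2.395-fold higher. That list held 3 higher, 1 lower and 3 uncalled members, and the lower member was Nr4a2 (log2 fold change -0.86). The list median was 0.88, beside 0.74 in WT mice of 4 weeks, -0.13 in HET and 0.22 in KO mice. Car3 itself, at 1.06, 0.971, 0.477, 0.1003 and 0.342 CPM in prefrontal and 0.107, 0.396, 0.115, 0.293 and 0.144 CPM in somatosensory cortex, overlapped between areas, and its adjusted p of 0.0366 became 0.0726 with all 6 WT regions in the fit and 0.0783 to 0.0988 without prefrontal library 1 or 2 or somatosensory library 1, 3 or 5. Of 4 measured layer 6b markers, 3 were higher and 1 lower. Among the higher was Nxph4, a secreted neurexophilin (log2 fold change 1.47, SE 0.31). Ctgf, another of the 3, lost its call by edgeR with all 6 WT regions (adjusted p = 0.394) or all 3 genotypes (0.0595) in the fit. Its call was also lost without prefrontal library 2, 3, 4 or 5 or somatosensory library 1 or 3. The layer 6b median was 0.82, beside 1.09 in WT mice of 4 weeks, 0.003 in HET and 0.91 in KO mice.

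The general excitatory markers differed little as a list (median log2 fold change 0.08), with 3 higher and 2 lower of 7. Slc17a7, the vesicular glutamate transporter of cortical excitatory neurons, was at 1958, 1792, 1811, 1999 and 1902 CPM in prefrontal and 1380.4, 1280.5, 1544, 1498 and 1484 CPM in somatosensory cortex, or 1.32-fold higher, a call that was lost with all 6 WT regions in the fit (adjusted p = 0.637). Neurod6, a bHLH factor of excitatory neurons, was 2.61-fold higher and the homeobox gene Emx1 1.97-fold lower. Slc17a6, the transporter that predominates in the thalamus, was at 7.95, 8.17, 8.15, 9.33 and 9.88 CPM in prefrontal and 46.9, 62.3, 42.1, 46.6 and 43.5 CPM in somatosensory cortex (log2 fold change -2.47, SE 0.11). The thalamic list as a whole held 2 higher and 2 lower of 8 members, with a median of 0.0. The lower members were Slc17a6 and Tnnt1 (log2 fold change -2.2). The level of this list was 2.52 to 2.73 in the prefrontal and 2.81 to 3.19 in the somatosensory libraries, without overlap. The part of thalamic tissue in these values was not tested.

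**Figure D2:**
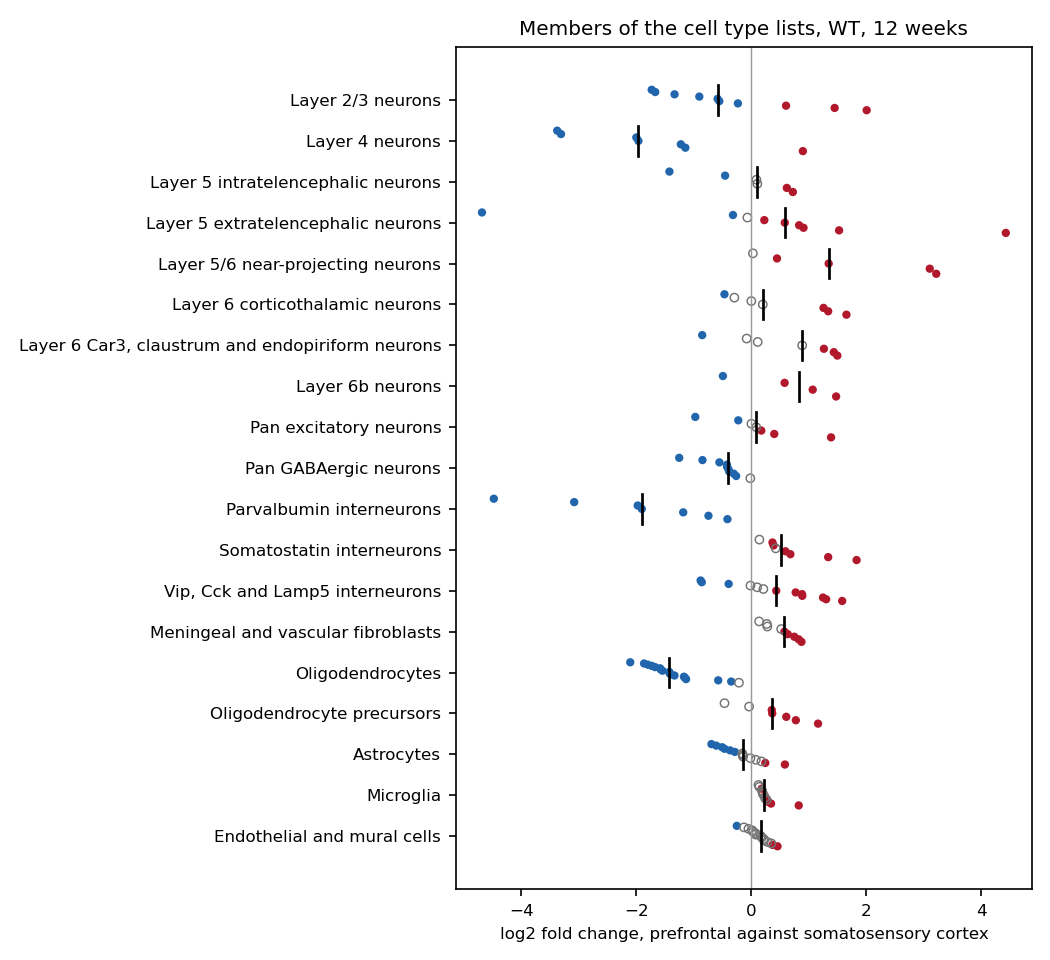
Log2 fold change of every tested member of 19 cell type lists, prefrontal against somatosensory cortex, WT, 12 weeks; filled points passed the test (red higher, blue lower in prefrontal cortex), open points did not, and black bars are list medians. Parvalbumin interneuron, oligodendrocyte and layer 4 members lie mostly to the left, with medians of -1.91, -1.43 and -1.97.

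Inhibitory neuron classes went in different directions. All 7 parvalbumin interneuron markers were lower in prefrontal cortex and none overlapped between areas, with a median log2 fold change of -1.91; the list's list level was 4.09 to 4.46 against 6.07 to 6.28. Pvalb (chr15:78191114-78206400, minus strand), the calcium-binding protein that gives the class its name, was at 13.3, 14, 7.84, 17.1 and 11.6 CPM in prefrontal and 104, 116, 103, 108 and 109 CPM in somatosensory cortex. Its log2 fold change was -3.08 (SE 0.15, adjusted p = 1.40e-09), or 8.47-fold lower. Cox6a2, a cytochrome oxidase subunit enriched in these cells, was 3.94-fold lower.

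Somatostatin interneuron markers were higher in 6 and lower in 0 of 8 cases, with a median of 0.51. Nos1, neuronal nitric oxide synthase, was at 101, 80.1, 84.97, 73.7 and 83.1 CPM in prefrontal and 24.3, 24.8, 26.97, 22.7 and 20.5 CPM in somatosensory cortex, a log2 fold change of 1.83 (SE 0.09, adjusted p = 1.76e-09). Grin3a, an NMDA receptor subunit, was 2.52-fold higher. Cort, the neuropeptide cortistatin, was 1.599-fold higher, but its libraries overlapped between areas. The list of Vip, Cck and Lamp5 interneurons held 7 higher and 3 lower of 13. Its largest differences were in Sncg, gamma-synuclein (2.99-fold), Cnr1, the cannabinoid receptor (2.46-fold, at 192 to 266 CPM against 88.97 to 106 CPM), and Calb2, calretinin (2.37-fold). With all 6 WT regions in the fit, 4 members were higher and Calb2 had an adjusted p of 0.0603.

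Genes shared by all GABAergic neurons were lower in prefrontal cortex in 9 of 10 cases, with a median of -0.41. Gad1, which makes GABA, was at 255, 245, 257, 245 and 231 CPM in prefrontal and 536, 622, 589, 581 and 617 CPM in somatosensory cortex, a log2 fold change of -1.26 (SE 0.05, adjusted p = 4.81e-10). Slc32a1, the vesicular GABA transporter, was 1.804-fold lower. With all 6 WT regions in 1 fit, 2 of the 10 passed, and Gad1 had an adjusted p of 0.0574; without somatosensory library 5, 5 of the 10 passed.

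Perineuronal net and matrix genes, many of which surround parvalbumin cells, were lower in 7 and higher in 3 of 13 cases. Acan, the net proteoglycan aggrecan, was at 2.65, 2.46, 2.08, 2.26 and 2.02 CPM in prefrontal and 10.99, 12.9, 8.87, 9.09 and 8.71 CPM in somatosensory cortex, a log2 fold change of -2.14 (SE 0.13). Has3, a hyaluronan synthase, was 3.39-fold lower. Tnc, the glycoprotein tenascin-C, was the reverse, at 5.38, 6.04, 6.58, 3.86 and 5.08 CPM in prefrontal and 1.13, 0.8903, 1.72, 0.975 and 1.54 CPM in somatosensory cortex.

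Myelin genes were lower in prefrontal cortex. Of 18 oligodendrocyte markers 17 were lower and 0 higher, with a median log2 fold change of -1.43 and a list level of 4.11 to 4.52 against 5.62 to 5.703. Mag, myelin-associated glycoprotein, was at 35.4, 32.1, 24.6, 31.1 and 36.6 CPM in prefrontal and 109.7, 107, 111, 114 and 115 CPM in somatosensory cortex, a log2 fold change of -1.8 (SE 0.09, adjusted p = 1.60e-09). Mog, myelin oligodendrocyte glycoprotein, was 3.65-fold lower and Gjb1, the gap junction protein connexin 32, 4.31-fold lower. Olig2, a transcription factor of the whole lineage and the member that did not pass, had a log2 fold change of -0.22. Oligodendrocyte precursor markers did not follow: 5 of 7 were higher and 0 lower, with a median of 0.36. Pdgfra, the growth factor receptor of precursors, was at 53.02, 45.8, 54.7, 45.04 and 54.4 CPM in prefrontal and 35.2, 33, 35.98, 31.99 and 30.1 CPM in somatosensory cortex, or 1.52-fold higher without overlap.

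Other glial and vascular lists differed less. Astrocyte markers had a median of -0.15, with 2 higher and 6 lower of 14; Slc4a4, a bicarbonate transporter, was 1.62-fold and Atp1b2, a sodium pump subunit, 1.53-fold lower. Microglial markers were higher in 5 of 12 cases, led by Aif1 (1.77-fold), but that count ran from 2 to 8 as single libraries were left out: 2 without prefrontal library 1, prefrontal library 5 or somatosensory library 5, 3 without somatosensory library 2 or 3, and 8 without prefrontal library 4. Endothelial and mural markers had 2 higher and 1 lower of 15; of the 3, Kdr lost its call without each of 6 libraries (prefrontal 1, 3 or 5, or somatosensory 2, 4 or 5) and Abcc9 without each library except somatosensory 4. Fibroblast markers of the meninges and vessels were higher in 5 of 9 cases, with overlapping list levels of 3.995 to 5.13 and 3.801 to 4.51. Col1a2, a collagen chain, was at 50.3, 37.4, 42.9, 23.1 and 40.4 CPM in prefrontal and 27.9, 19.7, 14.97, 23.3 and 24.1 CPM in somatosensory cortex, so prefrontal library 4 fell among the somatosensory ones, and the fibroblast count was 2 with all 6 WT regions and 1 with all 3 genotypes in the fit.

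Genes known to pattern the cortex in development were higher in 3 and lower in 5 of 17 cases, near the 43.4% called over all genes, with a median of -0.01. Lmo4, a LIM-domain cofactor, was at 353, 377, 402, 377 and 373 CPM in prefrontal and 142, 163, 167, 188 and 167 CPM in somatosensory cortex, a log2 fold change of 1.18 (SE 0.07, adjusted p = 7.27e-09). Satb1, a chromatin organiser, was 1.84-fold lower and Id2, an inhibitor of bHLH factors, 1.55-fold lower.

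Retinoic acid, made from vitamin A by aldehyde dehydrogenases, acts through nuclear receptors of the RAR and RXR families. Of 18 genes of the pathway measured, 8 were higher and 5 lower in prefrontal cortex. Among the synthetic enzymes, Aldh1a3 and Aldh1a1 differed in opposite directions. Aldh1a3 was at 13.1, 8.13, 6.24, 5.12 and 5.44 CPM in prefrontal and 1.58, 1.33, 1.61, 1.02 and 0.923 CPM in somatosensory cortex, a log2 fold change of 2.56 (SE 0.27). Aldh1a1 was at 13.7, 11.7, 12.4, 9.58 and 9.55 CPM against 51.7, 42.97, 49.8, 44.7 and 42.8 CPM, a log2 fold change of -2.03 (SE 0.1). Among the receptors, Rxrg differed by 3.88 (SE 0.18, adjusted p = 7.26e-10) while the other RAR and RXR genes measured ranged from -0.25 to 0.2.

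Adhesion genes of the cadherin family, which mark cortical fields, were called in 18 of 21 cases, 12 higher and 6 lower. Cdh13 was at 156, 149, 133, 139 and 132 CPM in prefrontal and 35.9, 38.1, 40.8, 43.6 and 42.8 CPM in somatosensory cortex, a log2 fold change of 1.82 (SE 0.07, adjusted p = 1.15e-10). Pcdh19 was 3.53-fold higher and Cdh6 3.78-fold lower. Axon guidance genes were divided, with 22 higher and 15 lower of 50 and a median of 0.02. The 3 largest called differences were all lower in prefrontal cortex. Robo3, a Slit receptor family member, was at 8.82, 18.3, 9.03, 10.1 and 10.05 CPM in prefrontal and 128, 79.3, 58.2, 56.2 and 85.6 CPM in somatosensory cortex. Sema7a, a membrane-anchored semaphorin, was at 118 to 131 CPM against 423 to 502 CPM, a log2 fold change of -1.86 (SE 0.06), and Unc5d, a netrin receptor, differed by -1.68 (SE 0.13).

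**Figure D3:**
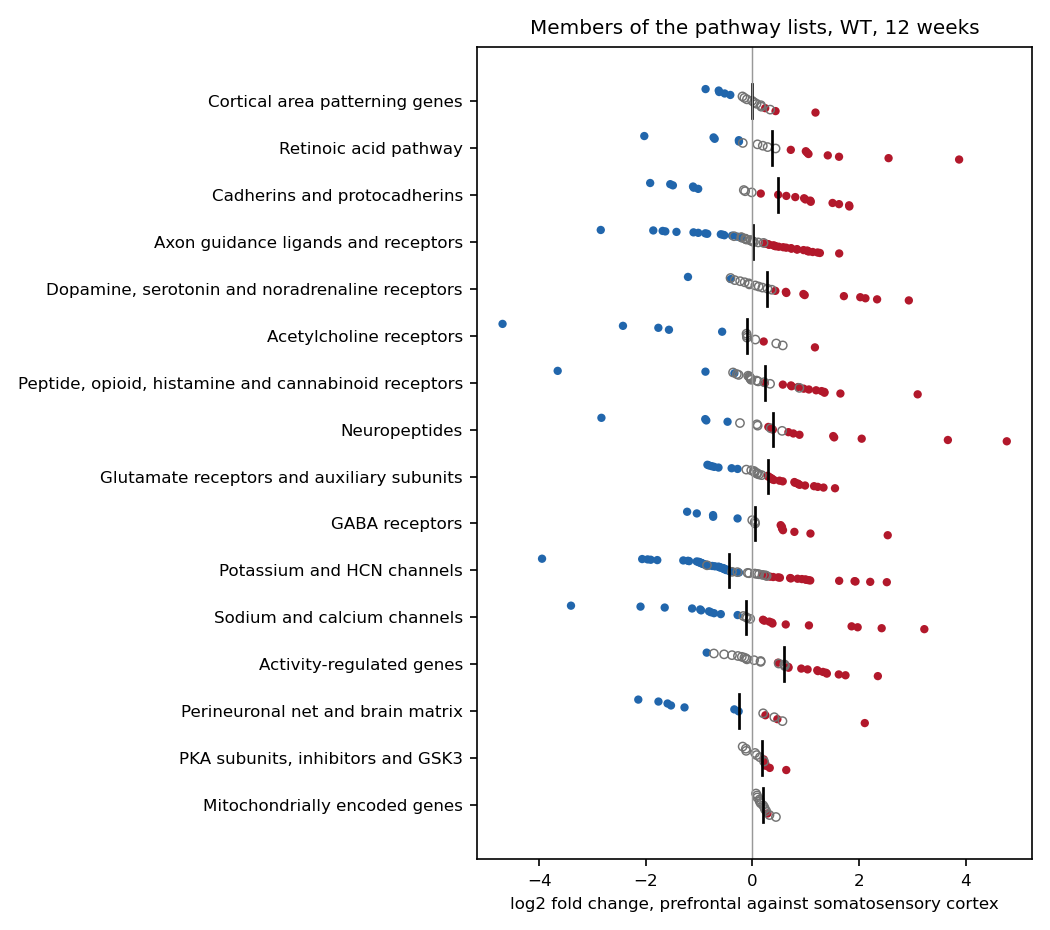
Log2 fold change of every tested member of 16 pathway lists, prefrontal against somatosensory cortex, WT, 12 weeks; filled points passed the test (red higher, blue lower in prefrontal cortex), open points did not, and black bars are list medians. Potassium channel members lie mostly to the left (median -0.45), while called neuropeptides (10 of 14), monoamine receptors (10 of 12) and activity-regulated genes (13 of 14) lie mostly to the right.

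Receptors for monoamines were more often higher than lower in prefrontal cortex, with 10 higher and 2 lower of 23 measured. This stands beside 43.4% called over all genes. Their median was 0.28, beside 0.21 in WT mice of 4 weeks, 0.02 in HET and 0.18 in KO mice. Htr2c, a serotonin receptor, was at 27.1, 22.8, 39.7, 33.6 and 36.96 CPM in prefrontal and 3.58, 5.36, 3.83, 3.95 and 4.14 CPM in somatosensory cortex, a log2 fold change of 2.94 (SE 0.16, adjusted p = 3.91e-09). Htr4, another serotonin receptor, was at 1.42, 1.13, 0.897, 1.76 and 1.71 CPM against 0.171, 0.198, 0.275, 0.366 and 0.349 CPM, and Drd5, a D1-class dopamine receptor, at 2.95, 2.95, 3.07, 4.74 and 4.04 CPM against 0.6401, 0.9299, 0.757, 1.02 and 0.718 CPM. None of the 3 overlapped between areas. Drd2, the D2 dopamine receptor, was at 0.592 to 1.204 CPM against 0.138 to 0.341 CPM (log2 fold change 2.02, SE 0.33), with an adjusted p of 1.71e-04 that became 0.110 with all 3 genotypes in the fit. Its difference had the opposite sign in the other comparisons of these areas, -0.83 at 4 weeks, -2.28 in HET and -0.61 in KO mice (adjusted p = 0.407, 0.136 and 0.407). Drd2 is also 1 of the 11 tested members of the striatal list, whose medians were 0.18, -0.83, -1.51 and -0.55 in the same 4 comparisons. These medians include Drd2, and at 4 weeks the median was the value of Drd2 itself. They are therefore no separate reading beside Drd2. The part of striatal tissue in the Drd2 values was not tested.

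Acetylcholine receptors were higher in 2 and lower in 5 of 13 cases, beside 43.4% called over all genes. Chrnb3, a nicotinic subunit, was at 1.19, 1.28, 1.89, 1.88 and 1.61 CPM in prefrontal and 8.45, 6.69, 10.98, 7.36 and 8.57 CPM in somatosensory cortex, a log2 fold change of -2.43 (SE 0.17), and Chrna3 differed by -1.76 (SE 0.33; adjusted p = 0.139 with all 6 WT regions in the fit). Receptors for peptides, opioids, histamine and cannabinoids were higher in 13 and lower in 3 of 30 cases, beside the same 43.4%. The largest difference was in Tacr3, the neurokinin B receptor, at 0.3603, 0.0844, 0.191, 0.1003 and 0.103 CPM in prefrontal and 1.77, 2.14, 1.93, 2.54 and 2.03 CPM in somatosensory cortex, or 12.6-fold lower.

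Neuropeptide genes were higher in 10 and lower in 4 of 19 cases. Trh, thyrotropin-releasing hormone, was at 1.14, 1.41, 0.916, 1.61 and 1.13 CPM in prefrontal and 0.107, 0.138, 0.0688, 0.0975 and 0.0615 CPM in somatosensory cortex, a log2 fold change of 3.67 (SE 0.29, adjusted p = 1.67e-07). Its receptor gene Trhr was higher in the same area by 3.1 (SE 0.19). Cartpt, the CART peptide, was at 1.38, 1.53, 1.28, 1.78 and 1.57 CPM in prefrontal and 8.56, 11.8, 10.6, 13.3 and 9.39 CPM in somatosensory cortex, a log2 fold change of -2.83 (SE 0.14).

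Glutamate receptor and auxiliary subunits were higher in 19 and lower in 7 of 35 cases, with a median of 0.3. Grm8, a presynaptic metabotropic receptor, was at 32.2, 28.4, 32.2, 41.8 and 34.2 CPM in prefrontal and 11.3, 9.79, 12.6, 11.8 and 12.1 CPM in somatosensory cortex, and Grik4, a kainate receptor subunit, was 2.34-fold higher. GABA receptor subunits were divided, with 7 higher and 5 lower of 15. Gabra5, an alpha subunit of extrasynaptic receptors, was at 57.7, 58.7, 75.6, 86.2 and 76.9 CPM in prefrontal and 29.3, 32.03, 32.8, 37.2 and 35.5 CPM in somatosensory cortex. Gabrd, the delta subunit of tonic inhibition, was the reverse, at 58.2, 54.7, 48.8, 43.6 and 48.7 CPM against 119.9, 110.2, 122, 114 and 127 CPM. Gabrq, the theta subunit, was 5.81-fold higher in prefrontal cortex.

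Potassium and HCN channel genes were lower in prefrontal cortex in 38 and higher in 20 of 69 cases, with a median of -0.45. Kcng4 is not on this list. Of its members the largest called difference was that of Kcnab3, described above, and the next, Kcng1 and Hcn4, were both higher in prefrontal cortex. Kcng1, a modifier subunit like Kcng4, was at 63.4, 78.96, 65.5, 67.6 and 53 CPM in prefrontal and 11.6, 13.7, 10.9, 10.3 and 10.7 CPM in somatosensory cortex, a log2 fold change of 2.52 (SE 0.11, adjusted p = 3.53e-10). Hcn4, a pacemaker channel, was at 5.43, 5.797, 8.57, 8.03 and 7.704 CPM against 1.37, 1.15, 1.83, 1.54 and 1.78 CPM. Sodium and calcium channel genes were evenly divided, 11 in each direction of 26. Opposite to Scn4b, Scn9a, the sodium channel Nav1.7 known from sensory neurons, was at 2.29, 1.89, 2.42, 2.28 and 2.76 CPM in prefrontal and 0.512, 0.178, 0.115, 0.195 and 0.226 CPM in somatosensory cortex, or 9.36-fold higher. Scn7a, a sodium-sensing channel, was 5.37-fold higher.

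Activity-regulated genes, which neurons induce within minutes to hours of firing, were higher in prefrontal cortex in 13 and lower in 1 of 29 cases, with a median of 0.6. Npas4, a transcription factor induced by depolarisation, was at 57.9, 53.9, 64.2, 98.8 and 71.1 CPM in prefrontal and 19.4, 9.398, 17.5, 7.44 and 13.8 CPM in somatosensory cortex, without overlap. Its log2 fold change was 2.35 (SE 0.24, adjusted p = 1.97e-06). Fosb, an AP-1 subunit, was at 24.1, 47.6, 23.9, 39.7 and 29.6 CPM against 11.3, 12.6, 13.97, 8.63 and 7.198 CPM, also without overlap. Egr2, a zinc finger factor, was at 6.51, 24.05, 14.7, 23.8 and 16.9 CPM against 2.03, 3.56, 12.5, 2.12 and 5.39 CPM: somatosensory library 3 lay above the lowest prefrontal library. Of the 29 members 4, all of them called, did not overlap between areas, beside 31.3% of all genes tested. The 14 called members of 29 stand beside 43.4% called over all genes, 21.6% higher and 21.8% lower. Nr4a2, the member that was lower (log2 fold change -0.86), is also a marker of claustrum and layer 6 neurons, and 4 members were lower when the sample number entered the fit as a block. The labels do not say how soon the tissue was frozen.

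Promoters of these genes are known to hold the cyclic AMP response element, the binding sequence of CREB, whose core TGACG reads CGTCA on the other strand. The 250 bases before the start were read from RefSeq (GRCm38.p6, the assembly of mm10) for 13 of the 14 called members, and 10 of the 13 had a core match in at least 1 promoter. Counted over promoters, 12 of the 23 of these genes had one, beside 17.8% of all 32851 promoters of the same length. Promoters 3, 4 and 5 of Egr2 overlap and hold the same 2 matches, so the 23 are not independent. Promoters on 1 chromosome were left out for these genes but not among the 32851. Those of Npas4 (chr19:4989972-4990221, minus strand), Fosb (chr7:19310046-19310295, minus strand), Nr4a3 (chr4:48045055-48045304, plus strand) and Btg2 (chr1:134079156-134079405, minus strand), all higher in prefrontal cortex, and of Nr4a2 (chr2:57124004-57124253, minus strand), which was lower, are printed 5′ to 3′ to show the sites, with each TGACG and each CGTCA in capitals.
Npas4: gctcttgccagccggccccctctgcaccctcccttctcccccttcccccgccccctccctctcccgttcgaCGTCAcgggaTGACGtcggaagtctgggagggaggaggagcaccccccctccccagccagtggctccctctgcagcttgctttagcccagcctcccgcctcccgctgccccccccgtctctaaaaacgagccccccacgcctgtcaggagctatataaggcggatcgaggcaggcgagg
Fosb: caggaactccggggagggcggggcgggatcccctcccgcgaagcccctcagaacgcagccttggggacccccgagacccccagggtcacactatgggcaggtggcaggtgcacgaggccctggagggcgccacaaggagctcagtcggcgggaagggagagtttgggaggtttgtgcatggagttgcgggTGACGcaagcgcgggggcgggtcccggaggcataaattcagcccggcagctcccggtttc
Nr4a3: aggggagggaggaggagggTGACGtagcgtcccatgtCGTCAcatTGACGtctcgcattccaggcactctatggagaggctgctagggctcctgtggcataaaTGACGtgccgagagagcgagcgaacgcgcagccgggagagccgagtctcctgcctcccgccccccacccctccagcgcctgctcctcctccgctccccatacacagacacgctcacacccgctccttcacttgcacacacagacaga
Btg2: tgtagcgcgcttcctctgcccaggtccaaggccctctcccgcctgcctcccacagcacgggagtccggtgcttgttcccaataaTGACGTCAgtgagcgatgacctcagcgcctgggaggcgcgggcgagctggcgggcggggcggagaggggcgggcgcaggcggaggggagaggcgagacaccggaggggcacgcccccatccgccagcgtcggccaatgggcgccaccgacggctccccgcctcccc
Nr4a2: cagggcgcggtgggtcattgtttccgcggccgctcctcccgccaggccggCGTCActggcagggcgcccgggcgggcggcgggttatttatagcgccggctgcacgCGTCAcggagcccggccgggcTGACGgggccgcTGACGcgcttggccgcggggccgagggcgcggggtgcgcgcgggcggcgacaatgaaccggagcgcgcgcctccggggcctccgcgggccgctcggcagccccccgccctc
The core occurs 2 times in the Npas4 promoter, 1 time in Fosb, 2 times in Btg2 (the overlapping arms of its palindrome) and 4 times each in Nr4a3 and in Nr4a2. Btg2 alone of the 13 has the full palindrome TGACGTCA, found in 1.55% of all promoters. Log2 fold changes were 1.32 for Nr4a3, a nuclear receptor (SE 0.33), and 1.4 for Btg2, an antiproliferative factor (SE 0.31). A match is a description of the sequence only.

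Akap11 anchors protein kinase A (PKA) and binds GSK3, so this pathway was read in the WT areas. Akap11 was at 243, 198, 271, 293 and 287 CPM in prefrontal and 205, 248, 239.7, 210.0 and 208 CPM in somatosensory cortex. The areas overlapped and the log2 fold change of 0.22 (SE 0.1) did not pass (adjusted p = 0.0853), but it passed without prefrontal library 2 (adjusted p = 0.00424) and with all 3 genotypes in the fit (0.0391). Of 12 genes of the list, 5 were higher and 0 lower, near the 43.4% called over all genes. The same list held 1 higher and 0 lower in WT mice of 4 weeks. It held 4 higher and 2 lower in HET mice, and 3 higher and 1 lower in KO mice. Pkia, an inhibitor of PKA, was at 159.9, 131, 192, 178 and 197 CPM in prefrontal and 89.1, 94.1, 126, 120.0 and 123 CPM in somatosensory cortex, or 1.55-fold higher. Prkaca, a catalytic subunit, was 1.19-fold higher.

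The same 24 genes were placed among the other brain regions of 12-week WT mice. Crym had a mean of 122 CPM in hippocampus and 172 CPM in striatum, and Rxrg was at 208 CPM in striatum. Scn4b, higher in somatosensory than prefrontal cortex, was at 3664 CPM in striatum. Syt2 was at 488 CPM in substantia nigra and Cbln1 at 48.1 CPM in thalamus. Grp was at 0 in all 5 striatal libraries and at 1.54 CPM in hippocampus. Of the 821 genes at least 2-fold higher in prefrontal cortex, 71.4% had a higher mean in hippocampus than in thalamus, beside 36.8% of the 614 genes at least 2-fold lower and 50.1% of all genes tested. The same shares for hippocampus above substantia nigra were 55.3%, 39.3% and 49.3%. Hippocampus was the highest of the 4 other regions for 36.8% of the 821, 17.8% of the 614 and 21.8% of all genes, thalamus for 11.2%, 30% and 24.9%, substantia nigra for 29%, 32.9% and 25.4%, and striatum for 23%, 19.4% and 27.9%. These shares are descriptions across genes, which are not independent replicates.

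**Figure D4:**
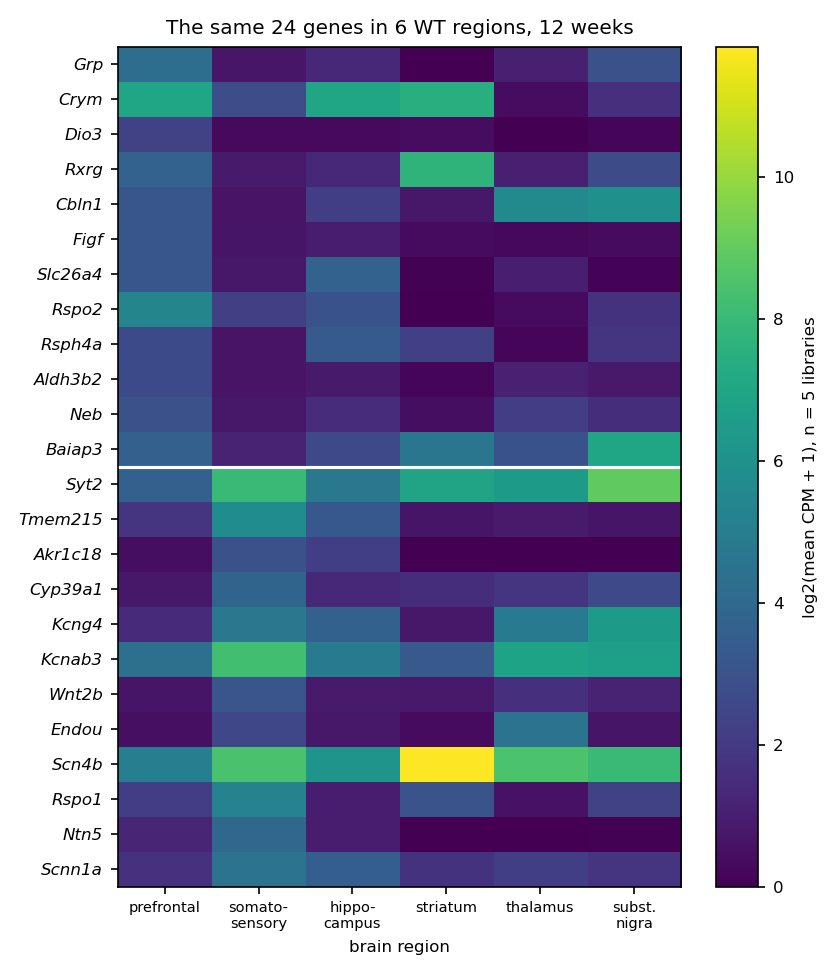
Mean level, as log2(mean CPM + 1) over 5 libraries, of the 12 genes highest (above the white line) and the 12 lowest (below it) in prefrontal relative to somatosensory cortex, across 6 WT regions at 12 weeks. Several are most abundant outside the cortex, such as Scn4b and Rxrg in striatum.

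The area differences were then read in mice of another age, whose libraries are separate from the 10 above. In WT mice of 4 weeks 4910 of 15685 genes were called (31.3%). Of 6813 genes called at 12 weeks and tested at 4 weeks, 97.3% had the same sign, beside 82.1% of all genes tested at both ages, and 60.3% were called in the same direction. Among the 1341 with at least a 2-fold difference, 99.3% had the same sign and 89.0% were called. All 24 genes with the largest differences were called in the same direction at 4 weeks, Crym at 4.66, Grp at 3.81, Syt2 at -3.57 and Pvalb, outside the 24, at -2.61. Rgs5, a marker of pericytes, was the gene called in opposite directions, 0.37 at 12 weeks and -0.52 at 4 weeks, and its difference between ages did not pass (adjusted p = 0.259).

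**Figure D5:**
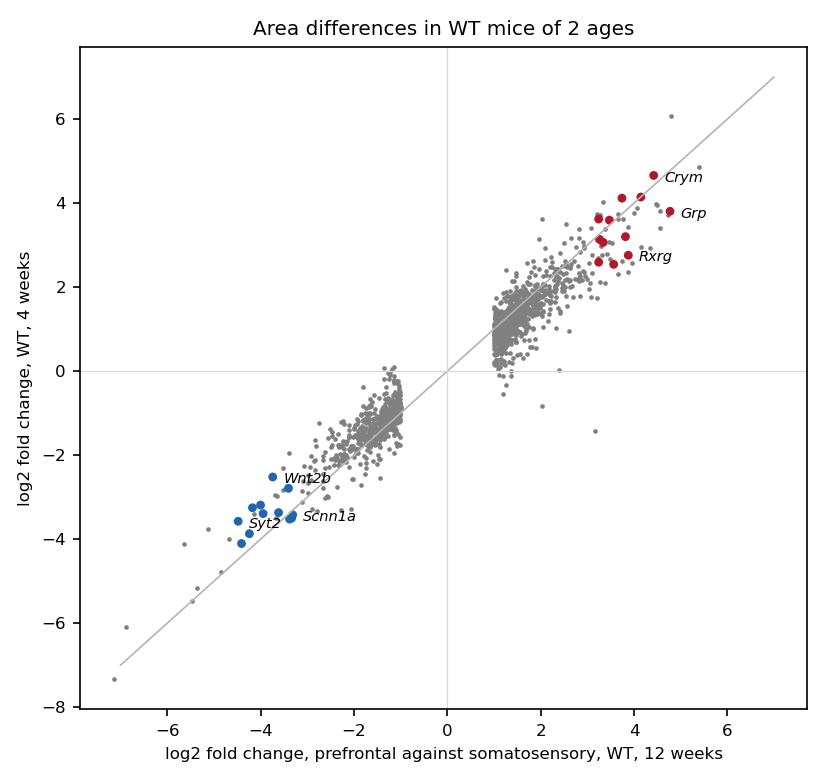
Log2 fold change of prefrontal against somatosensory cortex at 12 weeks (horizontal axis) and 4 weeks (vertical axis) for the 1341 genes called with at least a 2-fold difference at 12 weeks and tested at 4 weeks, all WT; coloured points are the 24 genes with the largest differences and the line is equality. All 24 keep their sign, and 99.3% of the 1341 do.

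A direct test of whether the area difference changed with age called 1 of 16349 genes (0.00612%) by edgeR. This was Ccdc3, a secreted coiled-coil protein, at 38.3, 35.2, 33.5, 26.1 and 29.7 CPM in prefrontal and 13.1, 15.1, 12.4, 12.4 and 12.1 CPM in somatosensory cortex at 12 weeks. Its log2 fold change was 1.32 at 12 weeks and 0.21 at 4 weeks, a change of 1.1 (SE 0.16, adjusted p = 0.00684). At an unadjusted p under 0.05, 1178 genes differed between ages, and DESeq2 called 22. The count was 2 without 4-week prefrontal library 914, 4-week somatosensory library 142 or 12-week somatosensory library 3. Age and the handling of the 2 cohorts cannot be told apart.

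The same contrast in the mutants gave 6322 of 15713 genes called in HET mice (40.2%) and 6448 of 15922 in KO mice (40.5%). Of the genes called in WT and tested in both, 99.5% had the same sign in HET and 99.4% in KO mice, beside 88.4% and 87.5% of all genes tested in both. All 24 genes with the largest differences were called in KO mice and 23 in HET mice; Rxrg, the exception, had log2 fold changes of 1.34 in HET (adjusted p = 0.206) and 2.72 in KO mice. Npas4 was again higher in prefrontal cortex, by 2.4 in HET and 2.68 in KO mice, and Pvalb lower, with log2 fold changes of -3.14 and -3.36. Tests of whether the area difference itself changed with genotype called 0 of 16645 genes by edgeR (0%) for KO against WT and 0 for HET against WT. At an unadjusted p under 0.05 these tests gave 287 and 200 genes, and DESeq2 called 3 and 0.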

How the data were processed

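Poly(A) RNA libraries (Illumina TruSeq Stranded mRNA, per the labels' protocols) were quantified with Salmon against mm10, per the submitters' processing notes; the Salmon version, annotation and strand setting are not given in those notes. The deposited table holds expected counts per gene symbol, for 28338 genes and 186 libraries; these were rounded to whole numbers. Libraries were grouped by their labels. Members, gene lists and tests were chosen with earlier results of these data known. In R 4.3.3, edgeR 4.0.16 (filterByExpr, TMM scaling, quasi-likelihood test) was fitted to the 10 libraries, with Benjamini-Hochberg adjustment over all genes tested and calls at an adjusted p under 0.05. CPM values are TMM-scaled, and the SE is the absolute log2 fold change divided by the square root of F. Differences between ages and genotypes were interaction terms. Named genes were the 12 largest called differences in each direction (average log2 CPM at least 1, no overlap between areas, no predicted gene models), up to 3 called members of each list with the largest change, the 2 genes with the largest called difference in each interaction, and Akap11. Not every gene the rule names is printed. A further gene is named where it was the exception in a list or its promoter is shown. Coordinates are from GENCODE M21, to which 96.67% of tested symbols matched. The 25 marker and 16 pathway lists were described by counts and medians. Fits on simulated counts for this comparison held about 15830 genes. They recovered 66.2% of 80 genes changed by 0.5, 84.8% of 79 by 1 and 100% of 39 by 2 on the log2 scale. There were 10 false calls among about 15640 unchanged genes. Changes of 2 were decreases only. Far fewer genes were changed than the 43.4% called in the data, so these shares need not hold for the real comparison. Replicate libraries were checked for duplicates: the 20 pairs had at least 11.8 chi-square per degree of freedom. Alternatives were DESeq2 1.42.0, its size factors, no low-count filter, a sample-number block, fits with more groups and leaving out each library.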

Additional observations from a re-analysis of the deposited data

Results flagged for a closer look

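In 314 groups of 5 libraries, 17 had a highest or lowest library whose gap to the next exceeded the critical share of the group's range (0.71 for 5 libraries); chance gives about 15.7. Somatosensory library 2 held 6 of them: Akr1c18 at 8.61 CPM, Cdhr1 at 2.47 CPM, Has3 at 4.04 CPM and Slc17a6 at 62.3 CPM were above the other 4 libraries, and Sox9, at 8.84 CPM, below them. Its list level (mean log2(CPM + 1) over the list) of near-projecting neuron markers, high at 2.64, was the other one. In prefrontal library 2, Cdh6 was low at 4.08 CPM and Robo3 high at 18.3 CPM. Rspo2 was high in prefrontal library 1, at 48.0 CPM. In somatosensory library 1, Scn9a stood at 0.512 CPM and Slc6a13 at 10.6 CPM, both high. In somatosensory library 5, Cort was high at 4.53 CPM and Neb low at 0.41 CPM, and the list level of oligodendrocyte precursor markers was low at 3.37. Among the levels of other lists, layer 5 extratelencephalic markers were high in prefrontal library 4 at 4.56, oligodendrocyte markers low in prefrontal library 3 at 4.11, and red blood cell markers high in somatosensory library 4 at 3.07. Ccdc3 was the gene whose area difference passed the test of a change between ages, by 1.1 on the log2 scale.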

How the results depend on the processing

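The count of genes called in WT at 12 weeks (6919) was 6897 with DESeq2's size factors, 6962 without the low-count filter, 7227 with DESeq2, 6915 with all 6 WT regions in the fit and 6993 with 3 genotypes in the fit; leaving out single libraries gave 6317 to 6879. Leaving out single libraries gave 4326 to 5409 calls at 4 weeks, 5599 to 6428 in HET and 5621 to 7286 in KO mice. The test of a change between ages moved from 1 gene to 22 with DESeq2 and to 1 to 2 when single libraries were left out, and to 4 without the 3 libraries of 4-week mice in which over 90% of values above 0 were not whole, an alternative chosen after seeing the data. DESeq2 called 3 genes for KO against WT. Same-numbered WT libraries of the 2 areas at 12 weeks correlated at 0.366, 0.21, 0.147, 0.0815 and 0.145 in their deviations. Of the 5, 2 correlated best with their own number. In WT mice of 4 weeks the values were -0.0607, 0.176, 0.439, 0.497 and 0.231 for numbers 142, 23, 913, 914 and 92. Numbers 23, 914 and 92 correlated best with their own. These values do not settle whether same-numbered libraries are pairs, and the main fits did not pair them. The replicate block gave 7385 calls in WT at 12 weeks and 5950 at 4 weeks, where the main fit gave 4910. It gave 5 in the test of a change between ages. No named gene reversed under any alternative run. Of the 132, 16 lost their call under at least 1 of the settings other than leaving out a library and 7 when a library was left out, and the 24 with the largest differences kept theirs in all 384 refits. Among the losses were Drd2 (adjusted p = 0.110) and Th (0.0750) with 3 genotypes in the fit, and Slc17a7 (0.637), Slc32a1 (0.191), Calb2 (0.0603) and Chrna3 (0.139) with all 6 WT regions in the fit. The cause of these changes was not tested.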

Other observations

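Markers of neighbouring structures were read as well. Striatal markers were higher in 3 and lower in 3 of 11 cases, and hippocampal markers in 2 and 2 of 7. Choroid plexus and ependyma markers were higher in 2 and lower in 1 of 4, and red blood cell markers in 0 and 0 of 4. Olfactory bulb and neuroblast markers were higher in 3 and lower in 1 of 7, with a median of 0.57. The level of this list was higher in every prefrontal than in every somatosensory library. Cdhr1 and Th, below, are members of it, and the part of such tissue in their values was not tested. Ppp1r1b, the dopamine-regulated phosphatase inhibitor DARPP-32, was at 45.8, 45.2, 38.3, 40.1 and 44.5 CPM in prefrontal and 124, 131, 143, 154 and 150.1 CPM in somatosensory cortex, a log2 fold change of -1.72 (SE 0.07, edgeR adjusted p = 4.20e-10) that was -1.88 at 4 weeks. Tdo2, a tryptophan-degrading enzyme known from dentate granule cells, was 3.31-fold higher in prefrontal cortex, at 0.394 to 0.668 CPM against 0.0791 to 0.287 CPM. Th, tyrosine hydroxylase of catecholamine synthesis, was at 1.06, 1.81, 1.01, 1.28 and 1.08 CPM in prefrontal and 0.491, 0.396, 0.298, 0.439 and 0.636 CPM in somatosensory cortex (adjusted p = 0.0750 by edgeR with 3 genotypes in the fit). Cdhr1, a photoreceptor and mitral cell cadherin, was 3.94-fold higher in prefrontal cortex, and Foxj1, the regulator of motile cilia, 2.71-fold lower. Kl, klotho, was 2.23-fold higher, at 3.67, 2.97, 3.26, 2.41 and 2.62 CPM against 1.26, 1.33, 1.399, 1.37 and 1.35 CPM, with no overlap between areas. Mitochondrially encoded genes were called in 1 of 13 cases, mt-Nd5, whose libraries overlapped between areas (edgeR adjusted p = 0.0433) and which lost its call without each of 7 libraries (prefrontal 2, 3 or 5, or somatosensory 2, 3, 4 or 5).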
